A study of Mus musculus with 22 samples.

Results

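Imprinted genes were followed across mouse embryonic germ (EG, 12 arrays) and embryonic stem (ES, 10 arrays) cell lines, kept in serum or in 2i medium. The genes came from a written list of 50 imprinted genes in 20 clusters, grouped by chromosomal cluster and by the parental allele that is usually expressed. A probe set of their own was found for 44 of the 50, in 19 of the clusters and among 19938 genes in all. Of these 44, 21 are expressed from the paternal allele, 20 from the maternal allele, and 3 have imprinted isoforms only. Ube3a, Mirg and Gnas lay only on probe sets shared with other genes, and Kcnq1ot1, Zrsr1 and Slc22a3 had no probe set listed, so these 6 were not analysed here. The rule uses gene identity and known imprinting, not measured values. Each array reports the sum of both alleles, and allele-specific expression and DNA methylation were not analysed here.

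The 22 arrays fall into 5 groups, and each array is called a line here. No label states whether same-numbered ES arrays in FCS and in 2i come from the same cell line. They share labelled sex and batch, and were compared as unpaired. EG lines came from embryos of day 8.5 and were either kept in fetal calf serum (FCS, 4 lines), kept 2 days in FCS and then moved to 2i (2is, 4 lines), or derived in 2i throughout (4 lines). ES lines were kept in FCS (5 lines) or in 2i (5 lines). All lines are of a mixed 129SvEv and Oct4-delta-PE-GFP background. FCS cultures received leukaemia inhibitory factor (LIF) and lay on mouse embryonic fibroblast feeders, whereas 2i cultures lay on laminin in N2B27 medium with LIF, PD0325901, which blocks MEK, and CHIR99021, which blocks GSK3. Medium and feeder layer therefore changed together. By their labels 10 lines are female and 12 male, with 1 female of 4 in EG FCS, 2 of 4 in EG 2is, 3 of 4 in EG 2i, and 2 of 5 in each ES group. The cell-type label reads EGCs on all 10 samples titled as ES cells, and they were grouped by title and source name. All EG arrays and 4 ES arrays (lines 1 and 2 of each culture) are labelled batch 1, and the remaining 6 ES arrays batch 2. Nothing in the labels states that the lines are independent cultures, so each p-value measures only how far these samples spread.

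Imprinted genes are expressed mainly from the allele inherited from one parent. Their clusters are governed by imprinting control regions, short stretches of DNA that carry methylation on one parental allele and keep it through early development, and many clusters hold a long non-coding RNA that silences neighbouring genes on the same chromosome. In primordial germ cells, the source of EG lines, these methylation marks are erased as the cells develop. ES lines descend from the blastocyst, where the marks are retained. Which marks the EG lines, from embryos of day 8.5, still held was not analysed here.

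All 22 lines had pluripotency markers at a mean log2 level of 10.9 to 11.2 (8 of 8 measured). Markers of feeder fibroblasts (24 of 25 measured) averaged 6.38 to 7.03 in the 9 FCS lines and 5.81 to 6.01 in the 13 2i lines. Acta2 read 8.48 to 10.4 in FCS and 4.79 to 5.45 in 2i, and Col1a1 6.33 to 7.63 against 5.31 to 5.61. Neural markers (8 genes) averaged 5.26 to 5.76 in 2i against 5.78 to 6.18 in FCS. Primitive endoderm markers (11 genes) overlapped, at 5.87 to 6.40 against 6.18 to 7.23, with ES medians of 6.27 in 2i and 6.24 in FCS, and so did trophoblast markers (11 genes), at 6.0 to 6.8 against 6.35 to 7.01. Their part in the culture differences below was not tested. Log2 intensities have no true zero, and the Y-linked Eif2s3y, which has no template in female lines, still read up to 4.88 in them, a value used below as the background level. Mean levels of 3 imprinted genes (Asb4, Dio3 and Kcnk9) were at or below it in every group, and 35 of 44 were above it in every group. In bulk RNA, fewer cells of a type and less RNA per cell cannot be told apart. The line EG 2i line 1 is labelled female and had no male signal (Eif2s3y at 4.61), but its X-linked genes, as a mean log2 level minus that of autosomal genes, read -0.09. Male EG lines in 2i or 2is read -0.19 to -0.13, and the other 4 female EG lines in 2i or 2is 0.25 to 0.36. Results by sex are given with and without this line.

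Promoter windows of the reference (RefSeq, GRCm38.p6, 250 bases before to 50 after the start) were found for 36 of the 44 genes, Peg10, Sgce and Impact not among them. They were searched on both strands for TGCCGC, the hexamer bound by ZFP57, a zinc finger protein that keeps methylation at imprinting control regions. The hexamer was in the windows of 13 of the 36 (36.1%) and in those of 13.1% of all 27025 genes with a window. These shares are not matched for base content. The hexamer holds a CG pair, and the median window of the reference had 7 such pairs. Of the 36 genes, only Airn, Rian, Slc22a18 and Tspan32 had no window above that median. The part of CG content in the 2 shares was not tested. Such a match describes letters in this window and is not a binding site. The windows of 4 genes with large culture differences (below) are shown, with each hexamer in capitals. Peg3 has none in its window, which overlaps that of its divergent neighbour Usp29 by 263 bases, Zdbf2 has 3 in the window shown, of 2 windows listed for it, and Plagl1 and Nnat 1 each.
Peg3, chr7:6730370-6730669, minus strand: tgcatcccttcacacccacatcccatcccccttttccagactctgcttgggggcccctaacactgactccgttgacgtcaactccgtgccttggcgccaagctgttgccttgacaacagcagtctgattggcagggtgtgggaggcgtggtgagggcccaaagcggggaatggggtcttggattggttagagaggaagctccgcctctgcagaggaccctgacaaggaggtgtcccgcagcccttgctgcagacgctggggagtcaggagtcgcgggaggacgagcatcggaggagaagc
Zdbf2, chr1:63200108-63200407, plus strand: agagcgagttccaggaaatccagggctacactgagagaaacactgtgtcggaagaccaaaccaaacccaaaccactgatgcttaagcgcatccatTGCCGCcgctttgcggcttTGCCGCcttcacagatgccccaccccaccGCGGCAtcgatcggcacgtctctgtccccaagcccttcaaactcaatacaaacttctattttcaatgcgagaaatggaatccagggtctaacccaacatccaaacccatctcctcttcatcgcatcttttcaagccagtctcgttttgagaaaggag
Plagl1, chr10:13090582-13090881, plus strand: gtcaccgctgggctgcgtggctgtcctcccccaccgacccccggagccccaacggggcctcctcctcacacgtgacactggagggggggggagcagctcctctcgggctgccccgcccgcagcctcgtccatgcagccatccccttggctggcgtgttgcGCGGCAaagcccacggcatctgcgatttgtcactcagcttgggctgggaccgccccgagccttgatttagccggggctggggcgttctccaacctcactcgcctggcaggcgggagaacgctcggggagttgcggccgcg
Nnat, chr2:157559828-157560127, plus strand: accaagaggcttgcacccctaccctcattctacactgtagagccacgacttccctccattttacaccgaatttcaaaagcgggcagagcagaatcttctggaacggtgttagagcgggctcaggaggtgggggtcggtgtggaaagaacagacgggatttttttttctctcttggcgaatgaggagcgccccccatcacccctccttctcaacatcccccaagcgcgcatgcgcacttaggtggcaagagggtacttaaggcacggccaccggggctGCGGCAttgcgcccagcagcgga

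More imprinted genes were lower than higher in 2i. In EG 2i against EG FCS, 12 of the 44 fell and 4 rose (limma, Benjamini-Hochberg adjusted p under 0.05 over all genes, here and below), against 12.5% and 11.4% of all 19938 genes, 23.9% in both directions. In EG 2is against EG FCS 16 fell and 5 rose, where 12.9% of all genes fell and 12.7% rose (25.6%). In ES 2i against ES FCS 17 fell and 6 rose, where 14.9% of all genes fell and 16.6% rose (31.6%). The median fitted log2 difference of the 44 was -0.07, -0.21 and -0.19 in the 3 comparisons, and that of all genes 0.01, -0.01 and 0.00. By expressed allele, 10 of 21 paternal genes fell and 2 rose in EG 2i, 11 fell and 3 rose in EG 2is, and 10 fell and 1 rose in ES 2i. Of the 20 maternal genes 2, 3 and 5 fell and 2, 2 and 5 rose. Whether the classes differ was not tested. A set of 8 genes fell in all 3 comparisons (Igf2, Mest, Nnat, Peg3, Phlda2, Ppp1r9a, Usp29 and Zdbf2), and 2 rose in all 3 (Igf2r and Plagl1). The share of all genes called in all 3 is not given here, so whether these counts are high cannot be told. The EG comparisons share their FCS lines. EG 2i and EG 2is did not differ for any of the 44 at this threshold (0 called by limma, with the default or with the trended and robust prior, and 9 at an unadjusted p under 0.05), nor for any other gene (0% of all genes, with 2116 at an unadjusted p under 0.05).

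**Figure D1:**
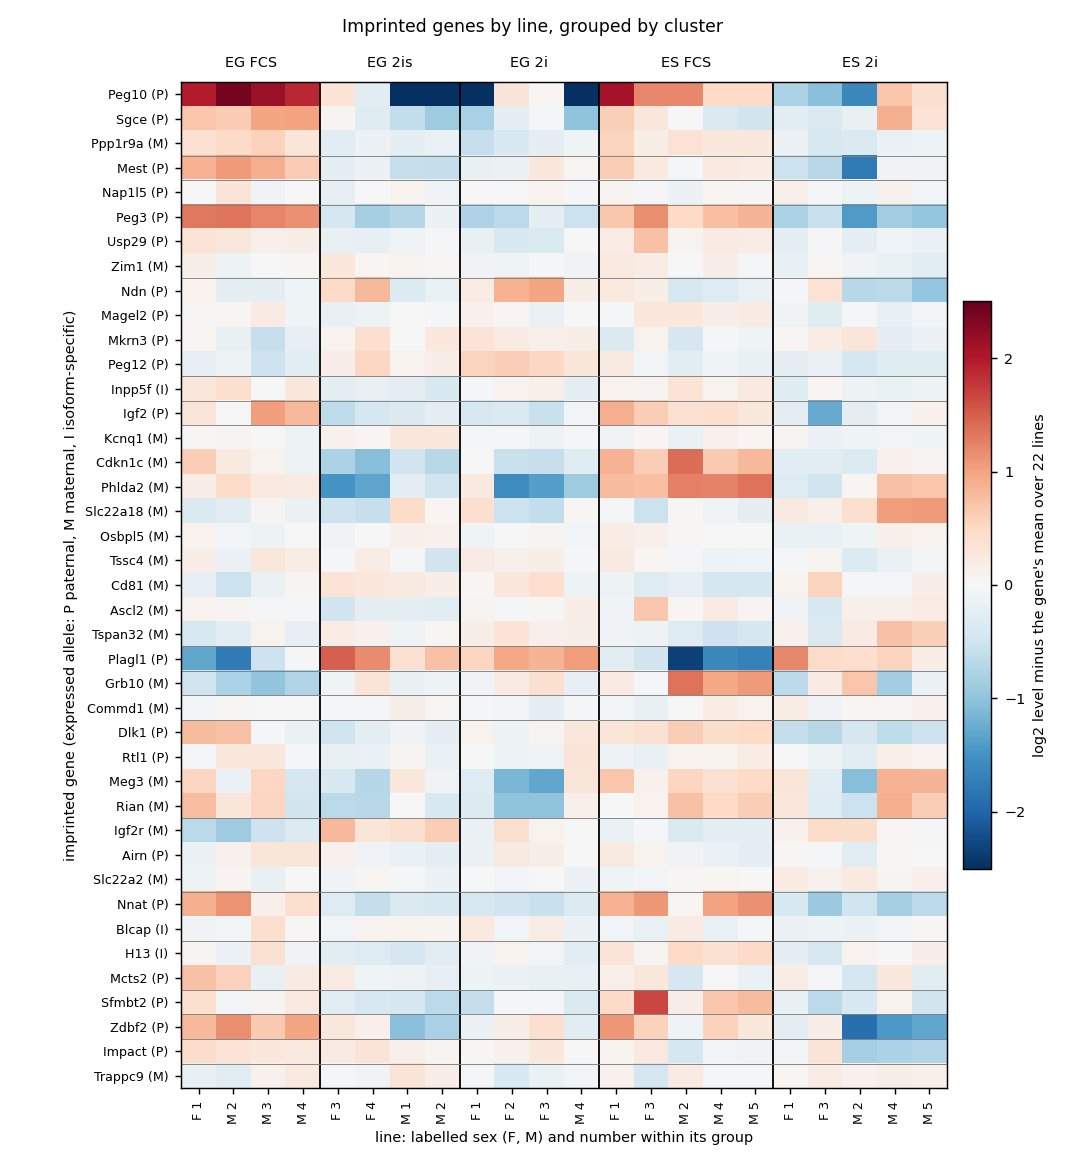
Log2 level of each imprinted gene (rows, in cluster order, with the expressed allele in brackets) in each of the 22 lines (columns, by group and labelled sex), minus the gene's mean over all lines; red is above and blue below that mean. Peg10 and Peg3 are red in all EG FCS lines, Plagl1 is red in most 2i lines, and Peg10 in EG 2i and 2is is dark blue in 4 lines and near its mean in the other 4.

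Peg10, a retrotransposon-derived gene needed for the placenta, and Sgce, which encodes epsilon-sarcoglycan, lie head to head on chromosome 6 and are both paternally expressed. Peg10 had the largest difference of the 44 genes in EG lines. Its log2 levels were 11.99, 12.43, 12.2 and 11.92 in FCS, 7.23, 6.63, 10.38 and 9.75 in 2is and 7.18, 10.35, 10.09 and 7.19 in 2i. The 4 FCS lines lay at 11.92 to 12.43, above every other EG line, whereas the 2i and 2is lines fell into a set at 6.63 to 7.23 and a set at 9.75 to 10.38. The fitted fall was 3.92 ± 0.77 (SE) in EG 2i, 15.2-fold, with adjusted p = 0.000895, and 3.88 ± 0.74 in EG 2is (adjusted p = 0.000595). Fitted differences are adjusted for labelled sex and batch and so need not equal the difference of the plain means. ES lines read 12.12, 11.24, 11.24, 10.54 and 10.52 in FCS and 9.25, 8.43, 8.99, 10.73 and 10.44 in 2i. The ES groups overlapped, with a difference of -1.57 ± 0.66 (SE) and adjusted p = 0.0785; within batch 1 it was -2.84 (adjusted p = 0.06) and within batch 2 -0.72 (adjusted p = 0.292). Without ES 2i line 4 or 5 the ES difference was called (-1.97 and -1.89, adjusted p = 0.0329 and 0.0468).

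Sgce levels were 7.36, 7.31, 7.66 and 7.68 in FCS, 6.05, 5.77, 6.73 and 6.36 in 2is and 5.85, 6.43, 6.62 and 5.66 in 2i. Every EG line in FCS was above every EG line in 2i or 2is, and Sgce fell by 1.47 ± 0.29 in EG 2i and 1.33 ± 0.28 in EG 2is (adjusted p = 0.00102 and 0.00155). In ES lines it read 7.27, 6.67, 6.95, 6.31 and 6.21 in FCS and 6.41, 6.49, 6.31, 7.56 and 7.01 in 2i, and the groups overlapped (difference 0.07 ± 0.25 (SE), adjusted p = 0.874). The EG response minus the ES response was -1.54 ± 0.39 (SE), with adjusted p = 0.0504, not called, though it was called without ES FCS line 1 or ES 2i line 1 or 3 (adjusted p 0.0227 to 0.0373). The maternally expressed Ppp1r9a, the actin scaffold neurabin, in the same cluster fell by 0.73, 0.63 and 0.55 in EG 2i, EG 2is and ES 2i, without overlap between groups (adjusted p = 3.41e-05, 8.19e-05 and 5.63e-05).

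Peg3, a paternally expressed zinc finger gene, fell in both cell types. EG lines read 9.52, 9.53, 9.41 and 9.33 in FCS, 7.48, 8.04, 7.78 and 7.35 in 2is and 7.42, 7.51, 7.97 and 7.66 in 2i. ES lines read 8.86, 8.68, 9.36, 8.94 and 9.04 in FCS and 7.4, 6.77, 7.63, 7.32 and 7.23 in 2i. No 2i or 2is line reached the lowest FCS line of its cell type, and the fitted difference was -1.88 ± 0.16 in EG 2i, -1.83 ± 0.15 in EG 2is and -1.71 ± 0.13 in ES 2i (adjusted p = 9.59e-08, 5.68e-08 and 1.66e-08). This is 3.69-fold lower in EG 2i and 3.26-fold lower in ES 2i, and the EG response minus the ES response was -0.18 ± 0.20 (SE) (adjusted p = 0.735). Within ES batches 1 and 2 the difference was -1.68 and -1.72. Usp29, the protease gene that shares the Peg3 promoter region shown above, fell by 0.48, 0.37 and 0.42, from levels of 5.24 to 5.91 in FCS to 4.79 to 5.17 in 2i. The Usp29 call in EG 2is was lost without EG FCS line 1 (-0.34, adjusted p = 0.0562) and that in ES within batch 1 (-0.34, adjusted p = 0.0874). Zim1, a maternally expressed zinc finger gene next to Peg3, fell in ES lines by 0.25 (adjusted p = 0.00382) but was not called within either batch (-0.26 and -0.25).

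Nnat, which encodes the membrane proteolipid neuronatin inside the Blcap gene, read 6.41, 6.64, 5.65 and 5.93 in EG FCS lines, 5.17, 5.13, 5.21 and 4.93 in EG 2is and 5.14, 5.06, 4.97 and 5.19 in EG 2i. In ES lines it read 6.4, 5.59, 6.62, 6.54 and 6.68 in FCS and 5.15, 5.04, 4.6, 4.71 and 4.87 in 2i. ES FCS line 2 stood below the other ES FCS lines. The fall was 1.11 ± 0.22, 1.07 ± 0.21 and 1.49 ± 0.19 in EG 2i, EG 2is and ES 2i (adjusted p = 0.000985, 0.000864 and 5.32e-06), and within ES batch 1 it was 0.89 (adjusted p = 0.0398). Its host gene Blcap stayed at 7.04 to 7.63 in all 22 lines and was not called (fitted differences 0.00, -0.02 and -0.05).

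Mest, a hydrolase-like gene of embryonic mesoderm, read 10.59, 10.79, 10.64 and 10.37 in FCS, 9.15, 9.14, 9.49 and 9.59 in 2is and 9.55, 9.58, 9.99 and 9.78 in 2i among EG lines. ES lines read 10.35, 9.67, 9.97, 9.98 and 9.92 in FCS and 9.19, 7.96, 9.04, 9.64 and 9.63 in 2i, with line 2 in 2i lowest. The groups did not overlap in either cell type, and the difference was -0.97 ± 0.24 in EG 2i, -1.3 ± 0.23 in EG 2is and -0.88 ± 0.20 in ES 2i (adjusted p = 0.00566, 0.000298 and 0.00215), or -1.43 in batch 1 and -0.52 in batch 2 of the ES lines.

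Zdbf2, a paternally expressed zinc finger gene, had EG levels of 8.95, 9.29, 8.79 and 9.12 in FCS, 7.08, 7.33, 8.42 and 8.26 in 2is and 8.0, 8.27, 8.53 and 7.85 in 2i. All EG FCS lines were above all other EG lines. Its ES levels were 9.23, 8.03, 8.72, 8.72 and 8.4 in FCS and 7.9, 6.25, 8.29, 6.7 and 6.84 in 2i, where 2i lines 2, 4 and 5, all male, were lowest and the female 2i line 3 overlapped the FCS range. The difference was -1.28 ± 0.26 in EG 2i, -1.47 ± 0.25 in EG 2is and -1.42 ± 0.22 in ES 2i (adjusted p = 0.00131, 0.00023 and 5.98e-05). Without the sex term the EG 2i difference was -0.87 and not called (adjusted p = 0.0994). Impact, an inhibitor of the kinase GCN2, read 10.98, 10.88, 10.79 and 10.77 in EG FCS, 10.65, 10.6, 10.73 and 10.85 in EG 2is and 10.57, 10.64, 10.8 and 10.51 in EG 2i. In ES lines Impact read 10.61, 10.08, 10.77, 10.47 and 10.44 in FCS and 10.46, 9.7, 10.86, 9.75 and 9.79 in 2i. It fell by 0.43 ± 0.14 in EG 2i and 0.36 ± 0.12 in ES 2i (adjusted p = 0.0286 and 0.0228), with overlapping groups. The EG call was lost with quantile normalization (-0.35, adjusted p = 0.0849). Neither Impact call held without the sex term (differences -0.22 and -0.36) or, for ES, within a batch (-0.27 and -0.43). The EG call was also lost when EG FCS line 2 or 3 was left out, and likewise EG 2i line 1 or 2 (adjusted p up to 0.0715). The ES call was lost without ES FCS line 4 or 5 or ES 2i line 2, 4 or 5 (up to 0.0837).

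Igf2, the insulin-like growth factor of fetal growth, and Sfmbt2, a Polycomb-related gene, are both paternally expressed. Igf2 read 5.88, 5.58, 6.62 and 6.41 in FCS, 5.22, 5.35, 4.95 and 5.14 in 2is and 5.18, 5.22, 5.03 and 5.51 in 2i in EG lines. In ES lines Igf2 read 6.5, 5.96, 6.21, 6.01 and 5.87 in FCS and 5.33, 5.34, 4.33, 5.52 and 5.69 in 2i. Groups did not overlap, and the difference was -0.76 ± 0.24 in EG 2i, -0.89 ± 0.23 in EG 2is and -0.87 ± 0.20 in ES 2i (adjusted p = 0.0245, 0.00658 and 0.00248). The EG 2i call was lost if EG FCS line 1, 3 or 4, or else EG 2i line 3, was left out (adjusted p 0.0555 to 0.0716), and the ES difference was -0.89 in batch 1 and -0.85 in batch 2 (adjusted p = 0.083, not called). Sfmbt2 read 7.73, 7.27, 7.41 and 7.58 in FCS, 6.91, 6.66, 7.08 and 6.94 in 2is and 6.74, 7.31, 7.28 and 6.98 in 2i in EG lines. In ES lines Sfmbt2 read 7.81, 7.5, 9.01, 8.03 and 8.13 in FCS and 7.15, 6.95, 6.66, 7.42 and 6.88 in 2i, with ES FCS line 3 highest. It fell in ES 2i by 1.08 ± 0.18 and in EG 2is by 0.66 ± 0.21 (adjusted p = 0.000125 and 0.0236), and the EG 2i difference of -0.53 was not called (adjusted p = 0.0809; called without ES 2i line 3, 0.0141). Within ES batch 1 the Sfmbt2 difference was -0.60, and the EG 2is call was lost without EG FCS line 1 or 4 or EG 2is line 2 or 4 (adjusted p up to 0.0725).

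**Figure D2:**
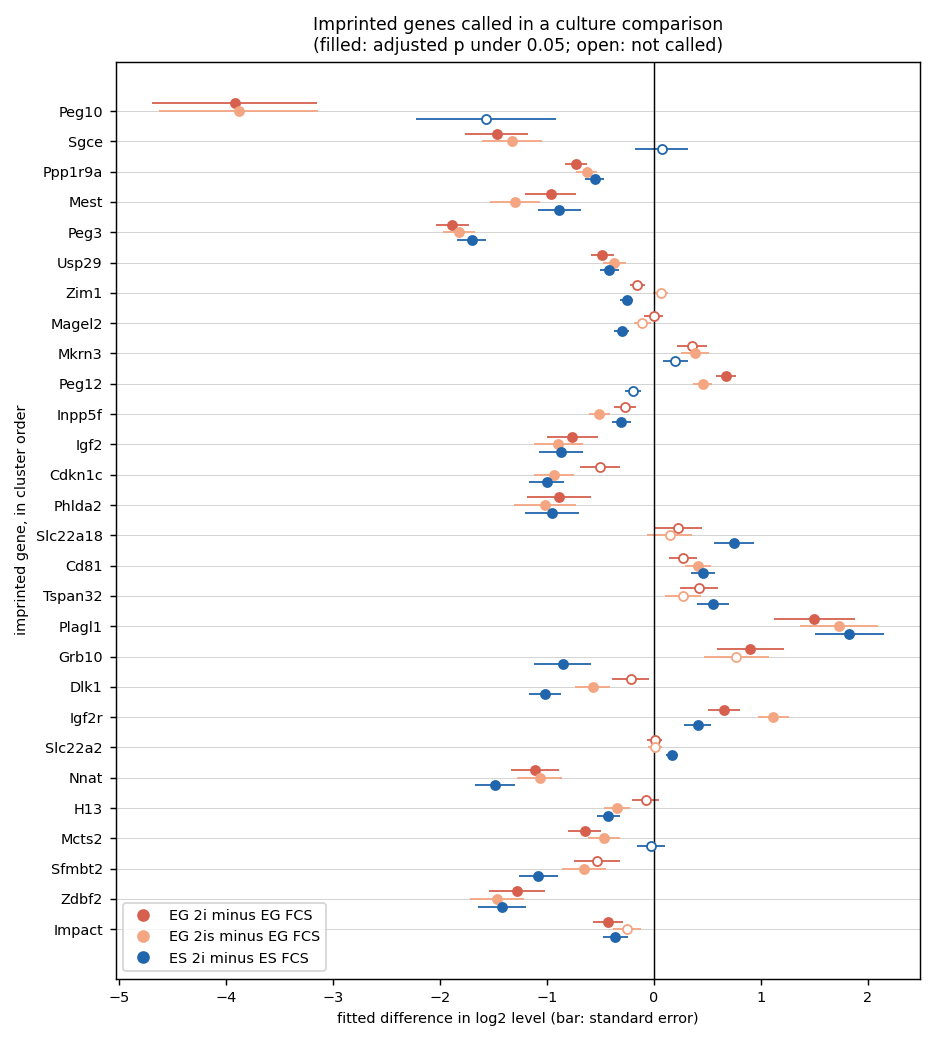
Fitted log2 difference from FCS with its standard error (x axis) for each imprinted gene called in at least 1 culture comparison (y axis, cluster order): EG 2i and EG 2is against EG FCS and ES 2i against ES FCS; filled points have an adjusted p under 0.05. Most points lie left of 0, Plagl1 and Igf2r lie right of it in all 3 comparisons, and Grb10 lies right of it in EG and left in ES lines.

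Plagl1, which encodes the zinc finger transcription factor ZAC1, was the paternal gene with the largest rise. EG lines read 6.94, 6.49, 7.72 and 8.18 in FCS, 8.63, 8.96, 9.73 and 9.43 in 2is and 8.77, 9.21, 9.09 and 9.28 in 2i. ES lines read 7.96, 5.91, 7.78, 6.64 and 6.56 in FCS and 9.43, 8.65, 8.71, 8.8 and 8.4 in 2i. Every 2i or 2is line was above every FCS line, and FCS lines ranged from 5.91 to 8.18. The rise was 1.5 ± 0.38 in EG 2i, 1.73 ± 0.37 in EG 2is and 1.83 ± 0.32 in ES 2i (adjusted p = 0.00647, 0.00145 and 0.000192), or 2.82-fold, 3.31-fold and 3.55-fold. In EG 2i it was not called without EG FCS line 1 (1.1, adjusted p = 0.0674) or EG 2i line 4 (1.2, adjusted p = 0.0532). Within FCS, the Plagl1 level followed the mean of the feeder markers. Pearson's r over the 9 FCS lines was 0.95 (exact permutation p = 5.2e-05, adjusted over 35 imprinted genes 0.0018) and Spearman's rho 0.98 (exact permutation p = 5e-05), and r was 0.93 without the 2 lines farthest from the median and 0.95 in the 6 lines of batch 1. EG and ES lines are pooled in these values, since 4 and 5 lines are too few for a correlation in each. EG FCS lines 3 and 4 and ES FCS lines 1 and 3, highest for Plagl1, also had the highest trophoblast marker means. These were 6.79 to 7.01, against 6.35 to 6.55 in the other FCS lines, and this relation was not tested. The direction of the relation within FCS, higher Plagl1 with higher feeder markers, is opposite to the culture difference, in which 2i lines had lower feeder markers and higher Plagl1. No other of the 35 genes tested had an adjusted p under 0.05; Igf2 came next by r (0.82, exact permutation p = 0.0081, adjusted 0.11).

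**Figure D3:**
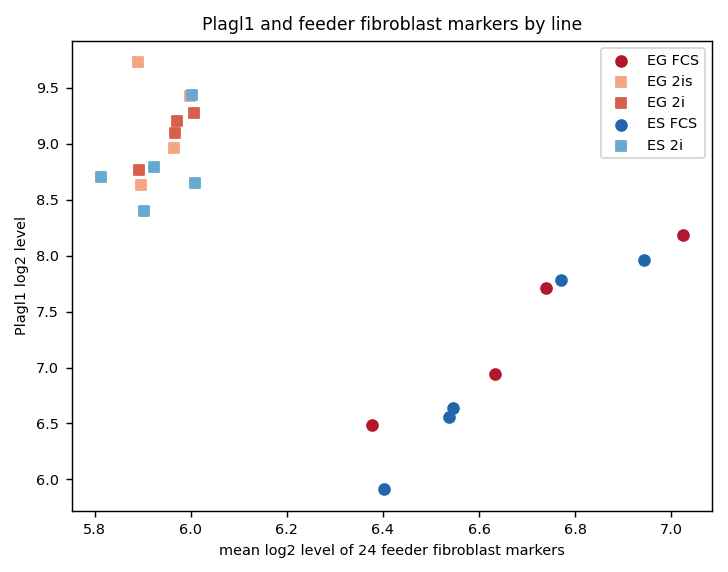
Plagl1 log2 level (y axis) against the mean log2 level of 24 feeder fibroblast markers (x axis) in each line, by group. The 9 FCS lines (circles) rise from 5.91 to 8.18 with the feeder mean, and the 13 2i and 2is lines (squares) lie at 8.40 to 9.73 with feeder means of 5.81 to 6.01.

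Igf2r, the receptor that removes IGF2, and Grb10, an adaptor that restrains insulin and IGF receptor signalling, are maternally expressed growth inhibitors. Igf2r read 7.7, 7.49, 7.86 and 8.04 in FCS, 8.79, 8.99, 9.19 and 8.68 in 2is and 8.23, 8.78, 8.47 and 8.4 in 2i in EG lines, every 2i and 2is line above every FCS line. ES lines read 8.21, 8.02, 8.34, 8.16 and 8.15 in FCS and 8.5, 8.82, 8.84, 8.44 and 8.33 in 2i. It rose by 0.65 ± 0.15 in EG 2i, 1.12 ± 0.14 in EG 2is and 0.41 ± 0.13 in ES 2i (adjusted p = 0.0032, 1.07e-05 and 0.0181), and the ES call was lost without ES FCS line 2 or ES 2i line 2 or 3 (adjusted p 0.0564 to 0.0759) and within batch 1 (0.54, adjusted p = 0.112). Airn, the antisense RNA that silences Igf2r on the paternal chromosome, read 4.52 to 5.09 over all lines, around the background level, and was not called in the culture comparisons, except in EG 2is when EG FCS line 1 was left out (-0.41, adjusted p = 0.00788). Slc22a2, a transporter gene of the same cluster, rose in ES 2i by 0.17 (adjusted p = 0.0352), a call lost without any one of ES FCS lines 1, 2, 3 or 5 and ES 2i lines 1, 2, 3 or 5 (adjusted p up to 0.122).

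Grb10 moved in opposite directions in EG and ES lines. EG lines read 7.1, 6.81, 6.63 and 6.86 in FCS, 7.43, 7.48, 7.51 and 7.94 in 2is and 7.52, 7.81, 8.0 and 7.4 in 2i, with all FCS lines below all others. ES lines read 7.81, 8.97, 7.56, 8.58 and 8.68 in FCS and 6.96, 8.31, 7.82, 6.77 and 7.47 in 2i, with overlapping groups. Grb10 rose by 0.90 ± 0.31 in EG 2i (adjusted p = 0.0435), differed by 0.77 ± 0.30 (SE) in EG 2is without being called (adjusted p = 0.0702, but 0.0479 without ES 2i line 3 and 0.0473 without line 4), and fell by 0.85 ± 0.27 in ES 2i (adjusted p = 0.0189). The EG response minus the ES response was 1.76 ± 0.41 (SE), with adjusted p = 0.0408. All of these calls are close to the threshold. The EG 2i call was lost without EG FCS line 2, 3 or 4, EG 2is line 3, EG 2i line 1, 2 or 3, ES FCS line 4 or ES 2i line 5 (adjusted p 0.0522 to 0.104), and with arrays centred on their medians (0.0546). The ES call was lost without ES FCS line 2, 4 or 5 or ES 2i line 1 or 4 (0.055 to 0.0775). It was not called within either batch (-0.76 and -0.92). The difference between responses was lost without EG FCS line 2, 3 or 4, EG 2i line 2 or 3, ES FCS line 2, 4 or 5 or ES 2i line 1, 4 or 5 (0.06 to 0.0902). It was 1.65 in batch 1 alone (adjusted p = 0.312).

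The Kcnq1 domain on chromosome 7 holds maternally expressed genes whose paternal copies are silenced with the non-coding Kcnq1ot1. Cdkn1c, the cyclin-dependent kinase inhibitor p57, read 6.54, 6.15, 6.02 and 5.8 in FCS, 5.46, 5.23, 5.13 and 4.85 in 2is and 5.93, 5.37, 5.36 and 5.62 in 2i in EG lines. In ES lines Cdkn1c read 6.79, 7.32, 6.54, 6.57 and 6.73 in FCS and 5.67, 5.59, 5.64, 6.04 and 6.0 in 2i. It fell in EG 2is by 0.93 ± 0.18 and in ES 2i by 1.0 ± 0.16 without overlap (adjusted p = 0.000764 and 7.83e-05), while the EG 2i difference of -0.50 ± 0.19 (SE) was not called (adjusted p = 0.0624) unless EG FCS line 4, EG 2i line 1 or ES FCS line 2 was left out (0.0219 to 0.028). Phlda2, which limits placental growth, fell by 0.89, 1.02 and 0.95 (adjusted p = 0.0361, 0.0128 and 0.00656). The EG 2i call for Phlda2 was lost on leaving out EG FCS line 1 or 2, or any 1 of EG 2i lines 2 to 4 (adjusted p 0.0665 to 0.181), with quantile normalization (0.054) and in batch 1 alone (0.0514), the EG 2is call without EG FCS line 1 (0.0692), and the ES call within batch 1 (-1.16, adjusted p = 0.104). Other genes of the domain rose: the transporter gene Slc22a18 by 0.75 and the tetraspanin gene Tspan32 by 0.55 in ES 2i (adjusted p = 0.00373 and 0.00812), and the tetraspanin gene Cd81 by 0.46 in ES 2i and 0.41 in EG 2is (adjusted p = 0.00307 and 0.0193). Within ES batch 1 none of the 3 was called (0.33, 0.36 and 0.20). In batch 2 the differences were 1.03, 0.68 and 0.63, and Tspan32 was not called there (adjusted p = 0.108). The EG 2is call of Cd81 was lost without EG FCS line 1 or 2 or EG 2is line 1 (adjusted p up to 0.0903). In EG 2i Cd81 was called without EG FCS line 4 (adjusted p = 0.0383). Kcnq1, Osbpl5, Tssc4 and the trophoblast factor Ascl2 were not called in these comparisons, with fitted differences between -0.31 and 0.19. In EG 2is, Ascl2 was called without ES FCS line 3 or ES 2i line 3, Kcnq1 without EG 2is line 4, ES FCS line 2 or ES 2i line 1, and Tssc4 without EG FCS line 1 or 2 or EG 2is line 1 or 4 (adjusted p 0.0203 to 0.0496).

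Phlda2 and Slc22a18 differed among the 2i and 2is lines themselves. Phlda2 read 7.9, 7.65, 6.68 and 6.84 in EG 2is, 8.4, 6.57, 6.77 and 7.26 in EG 2i and 7.83, 8.2, 7.66, 8.89 and 8.84 in ES 2i. Slc22a18 read 6.21, 5.8, 5.24 and 5.18, 6.17, 5.21, 5.13 and 5.78 and 5.98, 6.15, 5.87, 6.8 and 6.81 in the same lines. Both genes were singled out after their values were seen. EG 2is lines 3 and 4 and EG 2i lines 2 and 3, all labelled female, were the 4 lowest for both genes, and ES 2i lines 4 and 5, labelled male, the 2 highest. Since the lines fall into such sets, no correlation over them is given. Phlda2 in FCS read 8.33, 8.61, 8.4 and 8.36 in EG and 8.94, 9.42, 8.91, 9.4 and 9.52 in ES lines.

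In the Prader-Willi cluster the paternal genes did not move together. Peg12, also called Frat3, a GSK3-binding protein of the Frat family, read 5.34, 5.42, 5.01 and 5.28 in FCS, 5.63, 5.7, 5.7 and 6.05 in 2is and 6.09, 6.16, 6.06 and 5.84 in 2i in EG lines. In ES lines Peg12 read 5.76, 5.26, 5.47, 5.42 and 5.36 in FCS and 5.32, 5.11, 5.39, 5.24 and 5.24 in 2i. It rose in EG 2i by 0.67 ± 0.09 and in EG 2is by 0.46 ± 0.09, without overlap (adjusted p = 3.06e-05 and 0.000721), and the ES 2i difference was -0.20 ± 0.08 (SE) (adjusted p = 0.0685; called without EG FCS line 2 or ES FCS line 3, 0.0478 and 0.0457). Ndn, which encodes the MAGE protein necdin, read 7.64, 7.32, 7.3 and 7.43 in FCS, 7.2, 7.38, 8.03 and 8.35 in 2is and 7.73, 8.42, 8.52 and 7.69 in 2i in EG lines. In ES lines Ndn read 7.78, 7.13, 7.72, 7.22 and 7.38 in FCS and 7.51, 6.85, 7.9, 6.87 and 6.57 in 2i, and no culture difference was called (0.34, 0.15 and -0.31; adjusted p = 0.168, 0.569 and 0.114). Without EG 2i line 1, however, Ndn was called in EG 2i (0.50, adjusted p = 0.0148) and ES 2i (-0.31, 0.0447), and in ES 2i also without ES 2i line 3 (-0.41, 0.0339). Magel2, a ubiquitin ligase partner, fell in ES 2i by 0.30 (adjusted p = 0.00283; in batch 1 -0.16, adjusted p = 0.442). The makorin gene Mkrn3 rose in EG 2is by 0.38 (adjusted p = 0.0397), a call lost without EG FCS line 2, 3 or 4 or EG 2is line 2 or 4 (adjusted p up to 0.136), and was called in EG 2i without ES 2i line 2 (0.0428).

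The Dlk1-Dio3 cluster on chromosome 12 expresses Dlk1, a Notch ligand-like membrane protein, from the paternal allele and the non-coding RNAs Meg3 and Rian, with a large array of small RNAs, from the maternal allele. Dlk1 read 6.71, 6.64, 5.89 and 5.75 in FCS, 5.83, 5.7, 5.43 and 5.67 in 2is and 6.01, 5.78, 5.99 and 6.2 in 2i in EG lines. In ES lines Dlk1 read 6.22, 6.53, 6.29, 6.36 and 6.41 in FCS and 5.32, 5.5, 5.22, 5.28 and 5.4 in 2i. It fell in ES 2i by 1.02 ± 0.15 without overlap (adjusted p = 2.54e-05) and in EG 2is by 0.57 ± 0.17 (adjusted p = 0.015), and the EG 2i difference was -0.22 ± 0.17 (SE) (adjusted p = 0.423). The EG 2is call was lost without EG FCS line 1 (-0.34, adjusted p = 0.127) or line 2 (-0.45, adjusted p = 0.0611). Meg3 read 9.34, 8.65, 9.32 and 8.37 in FCS, 9.05, 8.71, 8.41 and 8.09 in 2is and 8.47, 7.66, 7.5 and 9.11 in 2i in EG lines. In ES lines Meg3 read 9.49, 9.34, 8.91, 9.18 and 9.3 in FCS and 9.11, 7.73, 8.51, 9.66 and 9.64 in 2i. Rian read 6.77, 6.29, 6.52 and 5.53 in FCS, 6.0, 5.61, 5.31 and 5.31 in 2is and 5.66, 4.99, 4.98 and 6.12 in 2i in EG lines. In ES lines Rian read 6.01, 6.72, 6.08, 6.49 and 6.6 in FCS and 6.26, 5.45, 5.66, 6.89 and 6.6 in 2i. Neither was called in the culture comparisons, except Rian without EG FCS line 4 (-0.92 in EG 2i and -0.90 in EG 2is, adjusted p = 0.0244 and 0.0215), with differences of -0.60, -0.28 and -0.31 for Meg3 (adjusted p = 0.308, 0.663 and 0.548) and -0.67, -0.64 and -0.21 for Rian (adjusted p = 0.134, 0.134 and 0.629). EG 2i lines 2 and 3 and ES 2i line 2 were lowest for Meg3 in their groups. Across the 8 EG 2i and 2is lines, both sexes together, Meg3 and Rian varied together (Pearson's r = 0.96, exact permutation p = 0.00089, adjusted over 39 within-cluster relations 0.035; Spearman's rho = 0.98, exact permutation p = 0.0004), with r = 0.94 without the 2 farthest lines. The 3 male EG lines were the highest of the 8 for Meg3, and each sex, like the 5 ES 2i lines, has too few lines for a correlation of its own. The 8 lines were chosen after seeing the data, and the adjustment covers these 39 relations only. The permutations took the 8 lines as exchangeable. Their p-values therefore do not separate a relation within a sex from a difference between the sexes. Rtl1 and Dio3 were not called.

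Between the outermost genes of this cluster the array carries 40 further probe sets for single miRNA genes and 2 for small nucleolar RNAs. Whether such a probe set reports the mature RNA, its hairpin or the host transcript cannot be told apart. Of the 40, 31 had a mean above the background level and 13 ranged over more than 1 log2 unit across the 22 lines. Their levels followed Meg3, with r above 0 for 40 of 40 over the 22 lines (0.18 to 0.93, median 0.66), as for Rian (0.91); the probe sets share the arrays and the transcription unit, and these values are descriptions. Mir382 had the highest r (0.93) and ranged from 5.28 to 7.39. In the culture comparisons 1 of the 40 was called, Mir666, higher in ES 2i by 0.18 ± 0.06 (adjusted p = 0.0213). Of all genes 23.9%, 25.6% and 31.6% were called in EG 2i, EG 2is and ES 2i against FCS. Between female and male 2i lines 2 of 40 were called, near the 5.17% of all genes, Mir337 and Mir673, both lower in females (-0.30 and -0.27, adjusted p = 0.0358 and 0.0377). In EG 2i and 2is lines 38 of 40 were lower in females, and in ES 2i lines 35 of 40. The share of all genes lower in females is not given here. The 40 share a transcription unit, so their directions are not 40 separate results. None of them was called in either cell type, where 2.61% and 0.316% of all genes were. Without EG 2i line 1, 37 were lower in females in EG 2i and 2is lines, with 3 of 40 called, where 8.55% of all genes were. The mature sequences of these 2 genes and of Mir382 are shown only to identify the 3 named microRNA genes (RefSeq, GRCm38.p6), with the seed, bases 2 to 8, in capitals; the 6 arms have 6 different seeds, and the 76 mature sequences of the 40 genes have 74.
mmu-miR-337-5p, chr12:109585818-109585839, plus strand: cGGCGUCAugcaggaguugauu
mmu-miR-337-3p, chr12:109585850-109585871, plus strand: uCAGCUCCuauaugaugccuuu
mmu-miR-673-5p, chr12:109572004-109572025, plus strand: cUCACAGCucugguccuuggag
mmu-miR-673-3p, chr12:109572044-109572066, plus strand: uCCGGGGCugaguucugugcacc
mmu-miR-382-5p, chr12:109733781-109733802, plus strand: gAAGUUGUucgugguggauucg
mmu-miR-382-3p, chr12:109733819-109733840, plus strand: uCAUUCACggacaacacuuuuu

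In the remaining clusters 3 genes were called. Inpp5f, an inositol phosphatase gene with a paternal short variant, fell by 0.51 in EG 2is and 0.30 in ES 2i (adjusted p = 0.000604 and 0.0101; within ES batches -0.43 and -0.22, not called), and in EG 2i it was called without EG FCS line 3, EG 2i line 3, ES FCS line 2 or 3 or ES 2i line 1 (0.021 to 0.0474). The signal peptide peptidase gene H13 fell by 0.35 in EG 2is and 0.43 in ES 2i (adjusted p = 0.0432 and 0.00469), and Mcts2, the paternal retrogene inside it, by 0.65 in EG 2i and 0.47 in EG 2is (adjusted p = 0.004 and 0.0242). The EG 2is call of H13 was lost without any one of EG FCS lines 1 and 3, EG 2is lines 1, 2 and 4, EG 2i line 3 and ES FCS line 4 (adjusted p up to 0.153), that of Mcts2 without EG FCS line 1 or 2 or EG 2is line 2 or 4 (up to 0.117) and also without the sex term (-0.39, 0.124), and the ES call of H13 within batch 1 (-0.48). Nap1l5, Commd1, Trappc9, Kcnk9, Asb4 and Airn were not called in the 3 culture comparisons, with fitted differences between -0.26 and 0.17.

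Feeder markers moved with culture: 11 of 24 fell in EG 2i, 14 in EG 2is and 17 in ES 2i, where 0, 1 and 3 rose. With the feeder marker mean of each line as a term in the fit, 8 imprinted genes were called in EG 2i, 7 in EG 2is and 12 in ES 2i. Of the imprinted genes called without the term, 5, 7 and 12 were called with it. Shares of all genes called with the term are not given here, so these counts are not read as particular to imprinted genes. Peg3, Plagl1 and Igf2r were called with it in all 3 comparisons, Plagl1 at larger differences (3.81, 4.07 and 3.99). Peg10, Sgce, Mest and Igf2 were not called with it in any of the 3. Mest differences were -0.92, -1.25 and -0.84, close to those without the term, with adjusted p = 0.207, 0.0702 and 0.186. Peg10 differences were -3.91 in EG 2i and -3.87 in EG 2is with adjusted p = 0.0829 and 0.0835. Sgce differences were -0.81 and -0.65, and Grb10 in EG 2i differed by 0.04. Igf2 turned to 0.46, 0.35 and 0.28 (adjusted p = 0.374, 0.527 and 0.57). Since no 2i line had as much feeder signal as any FCS line, feeder signal and medium cannot be told apart.

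Few imprinted genes were called between the cell types when culture was the same. In FCS limma called none of the 44, with the default or the trended and robust prior, where 0.01% of all genes were called. An unadjusted limma p under 0.05 was reached by 11 of the 44 and by 979 of all 19938 genes. Grb10 had the largest fitted difference, -1.62 ± 0.33 (SE) with EG lines at 6.63 to 7.10 and ES lines at 7.56 to 8.97 (adjusted p = 0.234), and Peg3 differed by 0.71 ± 0.16 (SE) (adjusted p = 0.431). In 2i 2 genes, both of the Prader-Willi cluster and both higher in EG lines, were called, where 3.72% of all genes were. Peg12 was higher by 0.72 ± 0.10 without overlap (adjusted p = 0.00115; 0.76 in batch 1 alone, adjusted p = 0.0159). Ndn was higher by 0.76 ± 0.18 (adjusted p = 0.0225), which was not called in batch 1 alone (0.76, adjusted p = 0.0757), without the sex term, or without EG 2i line 2, 3 or 4 or ES 2i line 1 or 2 (adjusted p up to 0.0772). Without EG 2i line 1 there were 5 called genes, with Peg3, Phlda2 and Slc22a18 added. The Phlda2 difference was then -1.14 and that of Slc22a18 -0.82. Leaving out other lines also added calls: Dlk1 without EG FCS line 1, 3 or 4, Impact without ES 2i line 3, Mest without ES FCS line 1, and Peg3 without EG 2is line 2 (adjusted p 0.0085 to 0.0472). EG 2is against ES 2i gave 0 called genes of the 44, where 0.0451% of all genes were called. There, 12 of the 44 and 1872 of all 19938 genes had an unadjusted limma p under 0.05. Without ES 2i line 3 this comparison gave 2 calls, Impact and Peg12. Without EG FCS line 2, EG 2is line 3 or ES FCS line 1 it gave 1, Peg12. The EG response to culture differed from the ES response in 2 of the 44, Peg12 (0.87 ± 0.12 (SE), adjusted p = 0.00307) and Grb10 (above), where 1.44% of all genes were called. In batch 1 alone Peg12 gave 0.95 (adjusted p = 0.133), so neither was called there. Dlk1 was called as well without EG FCS line 1 or 2 (0.0226 and 0.0459), and Ndn without EG 2i line 1 (0.0313).

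The spread among 2i lines ran with labelled sex for several imprinted genes. Over the 7 female and 6 male 2i and 2is lines, 3 paternal genes were higher in females, where 5.17% of all genes were called. Zdbf2 was higher by 1.11 ± 0.18 without overlap (adjusted p = 0.00191), Ndn by 0.83 ± 0.12 (adjusted p = 0.00121) and Impact by 0.48 ± 0.11 (adjusted p = 0.016). The maternal gene Slc22a18 was lower by 0.61 ± 0.17 (adjusted p = 0.0407). Impact was not called without ES 2i line 3 (adjusted p = 0.0537) or in batch 1 alone (0.29). Slc22a18 was not called in batch 1 alone (-0.48) or without EG 2is line 1, 2, 3 or 4, EG 2i line 2 or 3, ES FCS line 4 or 5 or ES 2i line 1, 3, 4 or 5 in turn (adjusted p 0.0508 to 0.109). Without EG 2i line 1 Phlda2 was called too (-0.86, adjusted p = 6.28e-05), and without ES 2i line 2 so were Meg3 (-0.93, adjusted p = 0.011) and Rian (-0.74, adjusted p = 0.0488), both lower in females. In FCS, with 3 female and 6 male lines, limma called 0 of the 44, with the default or the trended and robust prior, and 0.0251% of all genes. There, 10 of the 44 and 1054 of all 19938 genes had an unadjusted limma p under 0.05.

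With separate sex terms for EG and ES lines, chosen after the data were seen, 3 genes were called in each cell type. In EG 2i and 2is lines, where 2.61% of all genes were called, these were Peg10 (2.65 ± 0.62 (SE), adjusted p = 0.0358), Zdbf2 (0.83 ± 0.21 (SE), adjusted p = 0.0445) and Ndn (0.74 ± 0.16 (SE), adjusted p = 0.0212), all higher in females. For Peg10, the 4 female lines other than EG 2i line 1 read 9.75 to 10.38, the 3 male lines 6.63 to 7.23 and EG 2i line 1 7.18. The Phlda2 level of EG 2i line 1 (8.40) and its Slc22a18 level (6.17) were likewise outside the range of the other 4 female lines (6.57 to 6.84 and 5.13 to 5.24). Without that line 8.55% of all genes and 5 of the 44 were called, with Peg10 higher by 3.09 ± 0.43, 8.5-fold (adjusted p = 0.00026), and Phlda2 and Slc22a18 lower (-0.85 and -0.72, adjusted p = 0.00131 and 0.00881). In ES 2i lines, 2 female and 3 male, where 0.316% of all genes were called, Zdbf2 (1.54 ± 0.25 (SE)), Ndn (0.95 ± 0.19 (SE)) and Impact (0.95 ± 0.09 (SE)) were higher in females (adjusted p = 0.0159, 0.0482 and 6.56e-05). When EG 2i line 1 was left out of the fit, Phlda2 was called in ES lines too (-0.87, adjusted p = 0.019). The sex difference of Impact was smaller in EG than in ES lines, by 0.80 ± 0.12 (adjusted p = 0.0426, with 0.01% of all genes called). Without EG 2i line 1 it was -0.78 (adjusted p = 0.0101), and the sex difference of Peg10 was then larger in EG than in ES lines by 3.81 ± 0.66 (adjusted p = 0.019, with 0.296% of all genes called). Female 2i lines also had higher X-linked levels (0.04 to 0.36, EG 2i line 1 apart) than male lines (-0.28 to -0.13), and the part of this in the imprinted genes was not tested.

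**Figure D4:**
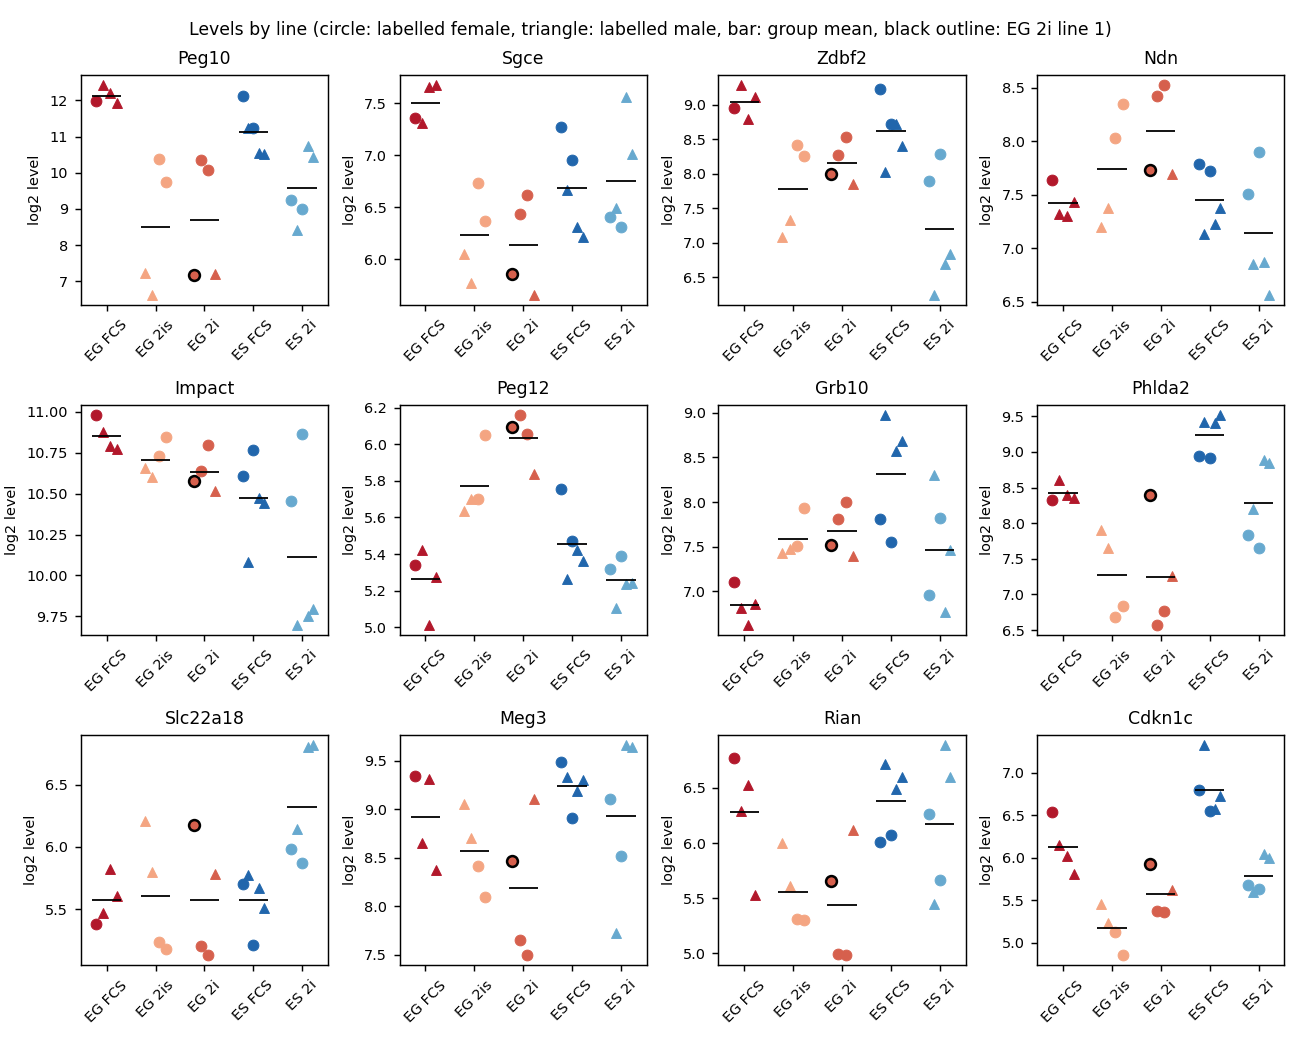
Log2 level of 12 imprinted genes (y axes) in each line by group (x axes); circles are labelled female, triangles labelled male, bars group means, and the black outline marks EG 2i line 1. In EG 2i and 2is, Peg10 circles lie at 9.75 to 10.38 and triangles at 6.63 to 7.23, with the outlined line at 7.18; in ES 2i, Zdbf2 and Impact circles lie above all triangles.

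Of 25 measured genes that set, keep or remove imprints, 52%, 48% and 52% were called in EG 2i, EG 2is and ES 2i against FCS, where 23.9%, 25.6% and 31.6% of all genes were. In them 7 rose and 6 fell in EG 2i, 5 rose and 7 fell in EG 2is, and 5 rose and 8 fell in ES 2i, and with all lines in the fit none of them was called in the other comparisons between groups or sexes. Dnmt3l, which assists the enzymes that lay down new DNA methylation, fell by 4.44, 4.23 and 2.36 (adjusted p = 6.03e-06, 4.74e-06 and 0.000403), and Dnmt3b, one of those enzymes, by 1.95, 2.07 and 1.95. Prdm14, a germ cell regulator, rose by 2.17 in EG 2i and 2.23 in EG 2is, and Dnmt3a fell by 1.93 in ES 2i. Only the largest called differences of each comparison are named. Values of Prdm14 in ES 2i and of Dnmt3a in EG lines are therefore not given, and neither gene is shown to be particular to a cell type. Of 32 other imprinted genes 4, 7 and 8 rose and 5, 4 and 7 fell in EG 2i, EG 2is and ES 2i, that is 28.1%, 34.4% and 46.9% called, beside the same shares of all genes. Of 117 genes that neighbour the clusters, without a place in either imprinted list, 11, 11 and 18 rose and 18, 20 and 22 fell, that is 24.8%, 26.5% and 34.2% called, near the shares of all genes above. Beyond those lists, imprinting of the 117 was not examined. They include microRNA genes such as Mir335, and the feeder marker Col1a2. Adam23, next to Zdbf2, fell by 2.94, 2.87 and 1.99, the largest called difference among these neighbours in each comparison.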

How the data were processed

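RNA of 22 samples was hybridised to Affymetrix gene arrays, 1 array per sample. The deposited values are log2 expression, made by the authors with RMA in Affymetrix Expression Console, with limma named for the analysis, per the submitters' processing notes, which give no versions; whether the authors adjusted for batch is not given in the sources used here. Of 28853 probe sets, 21789 list 1 gene symbol, 1621 several and 5443 none, and only the first were used, with the probe set of the highest mean kept per gene (1851 others left out). This left 19938 genes. For arrays the number of lines limits the precision.

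Differences were fitted in limma 3.58.1 (R 4.3.3) over all 22 arrays with terms for group, batch and labelled sex, by empirical Bayes with default settings, and p-values were Benjamini-Hochberg adjusted over all genes; genes with adjusted p under 0.05 are called. Tests are two-sided. Comparisons of sexes used a sex term per culture. Correlations used exact permutation tests, with numpy 2.4.6, pandas 2.3.3 and scipy 1.17.1, and figures matplotlib 3.10.9. The script was tested on simulated data. Genes were named by a rule of listed cluster genes plus the largest called differences, with Phlda2 and Slc22a18 added after their values were seen. The genes and lists were chosen with earlier results of these data known.

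Alternatives were a second quantile normalization, arrays centred on their medians, the mean of all probe sets, a filter on dim genes, fits without the batch or sex term, a trended robust prior, each batch alone, each line left out, a replicate block, and the feeder marker mean as a term; separate sex terms for EG and ES lines, with and without EG 2i line 1, were chosen after seeing the data. Relations within clusters were computed over the 9 FCS lines and over the 13 2i and 2is lines, 78 relations in all. By permutation tests, with 100000 random permutations for the 13 lines, 7 of the 78 had an adjusted p under 0.05. They are not described here. The relation given above comes from the EG 2i and 2is lines alone, a choice also made after seeing the data. No label states that a shared replicate number marks a shared cell line; labelled sexes differ between some EG lines of the same number, and same-numbered ES lines share sex and batch but did not all correlate above 0.1.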

Additional observations from a re-analysis of the deposited data

Results flagged for a closer look

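In groups of 4 or 5 lines, 10 of 205 gene and group combinations had a highest or lowest line that stood apart by Dixon's test, 4.88%, where chance gives about 1 in 20. On the log2 scale these were Usp29 in ES FCS line 3 (5.91, highest), Magel2 in ES FCS line 1 (5.16, lowest), Nnat in ES FCS line 2 (5.59, lowest), Peg12 in EG 2is line 4 (6.05, highest), Grb10 in EG 2is line 4 (7.94, highest), Rtl1 in EG 2is line 1 (5.10, highest), Ascl2 in EG 2is line 3 (5.06, lowest), Kcnq1 in EG 2i line 3 (4.78, lowest), Tspan32 in EG 2i line 2 (5.45, highest) and Igf2 in ES 2i line 3 (4.33, lowest).

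The culture response was called different between EG and ES lines, by a test of the difference itself, for Grb10 (EG minus ES response 1.76) and Peg12 (0.87). Neither was called in batch 1 alone (limma adjusted p = 0.312 and 0.133). The Grb10 call was also lost when any of several single lines was left out, as given above. The difference between female and male 2i lines of Impact was -0.80 in EG lines minus ES lines.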

How the results depend on the processing

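No called difference of an imprinted gene changed direction with quantile normalization or median centring, but 3 calls in EG 2i against FCS were lost: Grb10 with centring (0.87, adjusted p = 0.0546), and Impact (-0.35, 0.0849) and Phlda2 (-0.86, 0.054) with quantile normalization. Calls of Grb10 in EG 2i and in the difference of responses were also lost with the trended robust prior (adjusted p = 0.0536 and 0.0539). With the feeder marker mean as a term, 8, 7 and 12 genes were called in EG 2i, EG 2is and ES 2i against FCS and 4 in the difference of responses, and Igf2 reversed to 0.46, 0.35 and 0.28; the cause was not tested. In batch 1 alone, with fewer arrays, 11 genes were called in ES 2i against FCS, 0 in the difference of responses and 2 between sexes in 2i. Without the sex term 1 gene was called in EG 2i against ES 2i, without the batch term 1 in EG 2is against ES 2i, and with the trended robust prior 1 in the difference of responses. With the replicate block 15, 20 and 24 genes were called in the 3 culture comparisons, 0 in EG 2i against EG 2is and 1 in the difference of responses; same-numbered lines correlated at -0.56 to 0.32 in EG and -0.01 to 0.24 in ES, and 1 of 12 and 1 of 5 pairs were highest for their own number, so the numbers were not taken as pairs. Leaving out each line in turn gave 13 to 18 calls in EG 2i against FCS, 16 to 23 in EG 2is against FCS, 20 to 24 in ES 2i against FCS, 1 to 5 in EG 2i against ES 2i, 0 to 2 in EG 2is against ES 2i, 1 to 3 in the difference of responses, 2 to 6 between sexes in 2i, and 0 in EG 2i against EG 2is, in EG FCS against ES FCS and between sexes in FCS. Centring arrays on their medians moved the split of all genes called between sexes in 2i from 609 higher and 422 lower in females to 776 and 304, and that in the difference of responses from 113 and 174 to 98 and 290 (quantile normalization 104 and 102); the split in EG 2i against ES 2i moved from 240 and 502 to 271 and 312 with quantile normalization and to 176 and 715 with centring. Shares of all genes called with the feeder term, in batch 1 alone, without the sex or batch term, with the robust prior, with the replicate block or with a line left out are not given. The counts of imprinted genes in those settings are therefore not set against all genes. Genes near the background level, where differences are compressed, are the least certain.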
